A study of Homo sapiens with 12 samples.

Results

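The genes described are 30 genes of cholesterol and fatty acid synthesis that answer to sterol regulatory element binding proteins (SREBPs). They were taken by name from the 58735 genes of the deposited count table. By role they are 18 enzymes of sterol synthesis, the sterol carrier STARD4, 4 regulators (INSIG1, SREBF1, SREBF2 and SCAP) and 7 enzymes of fatty acid synthesis. All 30 passed the filter on low counts, among 15060 genes tested. RNA came from OCI-AML2 cells, which are human, derive from acute myeloid leukemia and carry a rearranged KMT2A gene, infected with a lentivirus carrying a single guide RNA. The guide was sgUTX_2 or sgUTX_4 in cells labelled UTX knockout, and sgLuc in cells labelled wild type. UTX is the histone demethylase encoded by KDM6A. Cells of each guide were grown for 6 days with SGC0946 at 1 µM, which blocks DOT1L, a methyltransferase of histone H3, or with DMSO. Each of the 6 combinations had 2 libraries, so each treatment held 4 sgUTX and 2 sgLuc libraries.

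SREBPs are made as precursors in the membrane of the endoplasmic reticulum, where SCAP binds them and INSIG1 holds the complex in place while sterols are plentiful. When sterols run low, SCAP carries the precursor to the Golgi, where proteases free the part that enters the nucleus and switches on target genes. The product of SREBF2 acts mainly on sterol synthesis, and products of SREBF1 act mainly on fatty acid synthesis. Several of the genes encoding the regulators, INSIG1 among them, are themselves targets.

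Total counts per library lay between 15480493 and 23262141. KDM6A, the targeted gene, stood at 14.4 and 15.9 CPM (counts scaled to the library total, with TMM factors) with sgUTX_2 in SGC0946, 43.1 and 48.8 with sgUTX_4 and 35.04 and 34.5 with sgLuc. In DMSO it stood at 14.7 and 15.5 CPM with sgUTX_2, 49.4 and 46.2 with sgUTX_4 and 32.02 and 27.9 with sgLuc. Its transcript was thus low with 1 guide only, and an edited gene need not lose its transcript, so these counts do not show whether UTX was lost. The myeloid identity of the cells was checked on 10 markers, and all 10 had counts in every group. Their summed level was 4817 to 6799 CPM in sgUTX and 12510 to 12710 CPM in sgLuc libraries with SGC0946, against 1515 to 1877 CPM in sgUTX and 1879 to 2048 CPM in sgLuc libraries with DMSO. LYZ made up most of the sums with SGC0946. It had 2887, 3257, 4696 and 4509 CPM in sgUTX and 9446 and 9239 CPM in sgLuc libraries. In sgLuc cells 9 of the 10 markers rose with SGC0946 and 1 fell, where 24.7% and 24.2% of all genes did. With SGC0946 8 of the 10 were lower and 1 higher in sgUTX than in sgLuc cells, where 29.3% and 27.7% of all genes were. Of 10 markers of other cell types, MS4A1, HBB and PF4 had no count anywhere, and the sum over all 10 was 2.67 to 4.51 CPM in sgUTX and 6.93 to 8.81 CPM in sgLuc libraries with SGC0946, against 0.482 to 2.05 CPM in sgUTX and 3.03 to 4.60 CPM in sgLuc libraries with DMSO. The part of these shifts in the results below was not tested.

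One library per treatment stood apart for these genes. Among the 4 sgUTX libraries in DMSO, the first sgUTX_4 library held the highest CPM for 24 of the 30 genes and for 16 of the 18 sterol enzymes. Among those with SGC0946, the first sgUTX_4 library held the highest CPM for 25 of the 30 and again for 16 of the 18. Counts without these libraries are given beside the results. RNA was measured in bulk, so fewer cells that express a gene and less of its RNA per cell cannot be told apart.

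**Figure D1:**
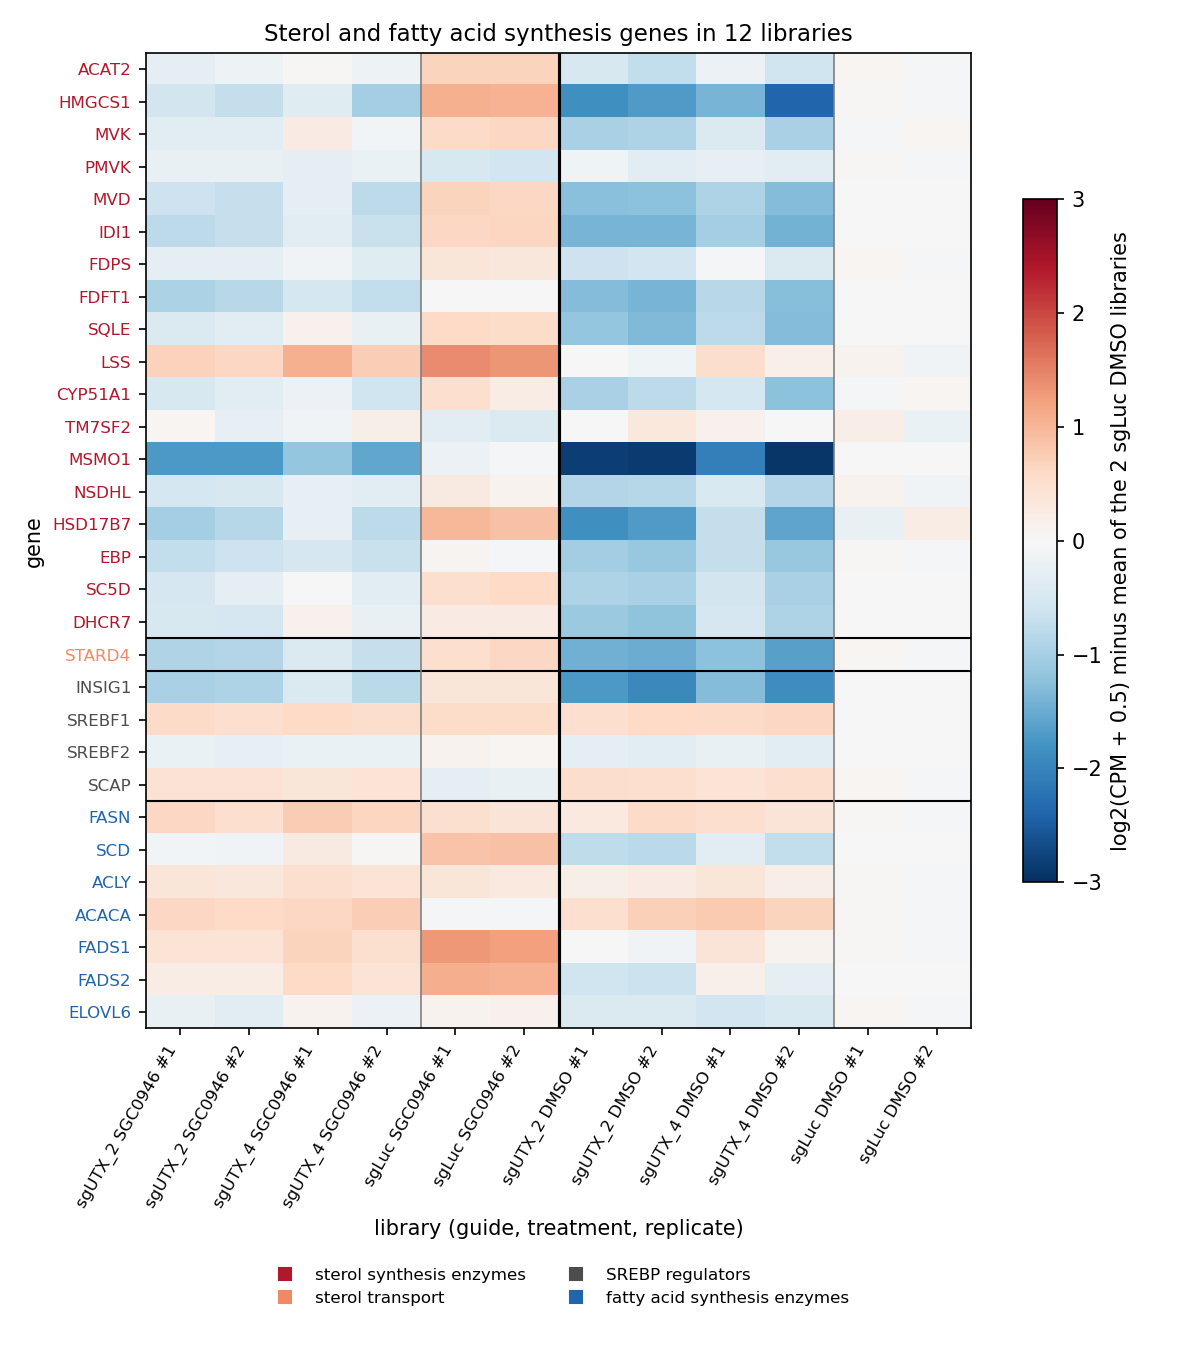
Level of each of the 30 genes in each of the 12 libraries, as log2(CPM + 0.5) minus the mean of the 2 sgLuc libraries in DMSO (colour scale, blue lower and red higher). Genes run down the page, coloured by role, and libraries run across. Most sterol enzymes were blue in sgUTX libraries with DMSO, with MSMO1 and HMGCS1 the deepest, while SREBF1, SCAP, FASN and ACACA were red in the same libraries.

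In DMSO, sterol synthesis genes were lower in sgUTX than in sgLuc cells. Of the 18 enzymes 16 fell, none rose, and LSS (lanosterol synthase) and TM7SF2 (a sterol reductase) did not pass the test. The median log2 fold change of the 18 was -0.91, a range of -2.65 to 0.15, and 8 of them differed at least 2-fold. Over all genes tested the median was -0.01, and 3067 of 15060 were called with a difference of at least 2-fold. Of all 30 genes 21 fell and 5 rose, where 32.3% of all genes tested fell and 28.7% rose, 61% in either direction. For 20 of the 30 every sgUTX library lay below both sgLuc libraries and for 5 above, where 35.7% and 32.3% of all genes did. Without the first sgUTX_4 library in DMSO 22 of the 30 fell and 5 rose.

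The largest difference was in MSMO1 (ENSG00000052802, chr4:165327623-165343160, plus strand), a monooxygenase that takes part in removal of methyl groups from the sterol ring. MSMO1 had 20.2, 19.4, 34.8 and 18.8 CPM in sgUTX libraries, against 144 and 148 CPM in sgLuc libraries. Every sgUTX library was far below both sgLuc libraries, and the third sgUTX value, from the first sgUTX_4 library, was the highest of the 4. The log2 fold change was -2.65 (edgeR adjusted p = 1.41e-05, SE 0.25). HMGCS1 (ENSG00000112972, chr5:43289395-43313512, minus strand) makes HMG-CoA, the substrate of the rate-limiting step. HMGCS1 had 51.4, 56.8, 70.2 and 35.03 CPM in sgUTX and 190.3 and 180.04 CPM in sgLuc libraries. The groups did not overlap, although the sgUTX_4 libraries held both the highest and the lowest of the 4 sgUTX values, and the log2 fold change was -1.79 (adjusted p = 0.000194, SE 0.24).

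Of the early, mevalonate steps, ACAT2 (acetoacetyl-CoA thiolase), MVK (mevalonate kinase), PMVK (phosphomevalonate kinase), MVD (mevalonate diphosphate decarboxylase), IDI1 (isopentenyl diphosphate isomerase) and FDPS (farnesyl diphosphate synthase) all fell. Their log2 fold changes were -0.49 for ACAT2, -0.82 for MVK, -0.26 for PMVK, -1.18 for MVD, -1.30 for IDI1 and -0.40 for FDPS. The smallest of these, PMVK, had 45.01, 38.8, 41.1 and 38.97 CPM in sgUTX and 50.2 and 47.96 CPM in sgLuc libraries, close but without overlap, and its call was lost without the first sgLuc library in DMSO (adjusted p = 0.0748), as was that of ACAT2 (0.0683). The groups overlapped for FDPS, which had 90.9, 94.03, 138 and 105 CPM in sgUTX and 146 and 136 CPM in sgLuc libraries. Its fall (adjusted p = 0.033) was lost in 6 of the fits that left out 1 library, with adjusted p-values up to 0.173. At the branch into sterols, FDFT1 (squalene synthase) fell by 1.19 and SQLE (squalene epoxidase) by 1.13 on the log2 scale.

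LSS, which closes the sterol rings, had 57.3, 52.4, 81.7 and 63.4 CPM in sgUTX libraries, on both sides of 61.7 and 52.6 CPM in sgLuc libraries. Its log2 fold change was 0.15 (adjusted p = 0.515, SE 0.19). After LSS, the demethylase CYP51A1 had a log2 fold change of -0.89, the dehydrogenase NSDHL of -0.78, the ketoreductase HSD17B7 of -1.51, the isomerase EBP of -1.01, the desaturase SC5D of -0.87 and the reductase DHCR7 of -0.92. All 6 fell. TM7SF2 was scarce, with 4.32, 5.56, 4.85 and 4.37 CPM in sgUTX and 5.10 and 3.71 CPM in sgLuc libraries, and the groups overlapped. STARD4, which moves cholesterol between membranes, fell to 30.6, 29.4, 35.4 and 26.6 CPM in sgUTX libraries, against 86.4 and 80.7 CPM in sgLuc libraries, a log2 fold change of -1.46 (adjusted p = 1.48e-07, SE 0.12). CYP51A1 and ACAT2 share 83.2% and 52.3% of their exonic bases with overlapping genes, so part of their counts may belong to those.

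The 4 regulators split. INSIG1 (ENSG00000186480, chr7:155297776-155310235, plus strand), which retains SREBPs, had 148, 129, 198 and 135 CPM in sgUTX libraries and 490.01 and 491 CPM in sgLuc libraries. No sgUTX library came near the sgLuc pair, and the log2 fold change was -1.69 (adjusted p = 4.57e-05, SE 0.19). SREBF1 (ENSG00000072310, chr17:17810399-17837002, minus strand) went the other way, with 167, 179, 175 and 181 CPM in sgUTX and 116 and 118 CPM in sgLuc libraries, and a log2 fold change of 0.58 (adjusted p = 1.04e-08, SE 0.06). SCAP, the escort protein, rose as well, with 116, 112, 106 and 114 CPM in sgUTX and 82.4 and 77.1 CPM in sgLuc libraries, a log2 fold change of 0.49 (adjusted p = 3.72e-07, SE 0.06). SREBF2 had 367, 355, 383 and 357 CPM in sgUTX and 452 and 442 CPM in sgLuc libraries, a small fall of 0.29 on the log2 scale (adjusted p = 8.62e-05).

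The 7 fatty acid enzymes had no common direction. FASN (fatty acid synthase), ACLY (ATP citrate lyase) and ACACA (acetyl-CoA carboxylase) rose, SCD (stearoyl-CoA desaturase) and ELOVL6 (a fatty acid elongase) fell, and the desaturases FADS1 and FADS2 did not pass the test. ACACA had 106, 123, 128 and 119 CPM in sgUTX and 76.2 and 73.2 CPM in sgLuc libraries, a log2 fold change of 0.67 (adjusted p = 3.64e-08, SE 0.07). FASN had 519, 625, 600.4 and 557 CPM in sgUTX and 436 and 411 CPM in sgLuc libraries, a log2 fold change of 0.44, and ACLY one of 0.24. These 3 make the fatty acid chain itself from citrate, and for each of them all 4 sgUTX libraries lay above both sgLuc libraries. SCD, which puts the first double bond into the chain, had 542, 518, 721 and 551 CPM in sgUTX and 901 and 925 CPM in sgLuc libraries, a log2 fold change of -0.65 (adjusted p = 0.000876, SE 0.13). ELOVL6 had a log2 fold change of -0.49, FADS1 of 0.11 (adjusted p = 0.453) and FADS2 of -0.30 (adjusted p = 0.254).

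Set side by side in each library, the branches were apart in every sgUTX library. Relative to the sgLuc libraries in DMSO, the median log2 difference of the 18 sterol enzymes was -1.01, -1.06, -0.54 and -1.06 in the 4 sgUTX libraries with DMSO. For the 7 fatty acid enzymes it was -0.00, -0.11, 0.36 and 0.10. The fatty acid median exceeded the sterol median by 0.90 to 1.16 in these 4 libraries. With SGC0946 the gap was 0.76 to 0.85 in the 4 sgUTX libraries, against -0.02 and -0.07 in the sgLuc libraries. Against sgLuc cells with SGC0946, the median log2 fold change in sgUTX cells was -0.27 for fatty acid enzymes and -0.77 for sterol enzymes. The sum over the 18 sterol enzymes was 981, 933, 1330.3 and 966 CPM in sgUTX libraries with DMSO and 2201 and 2164 CPM in sgLuc libraries with DMSO. The sum over the 7 fatty acid enzymes was 2014, 2106, 2584 and 2158 CPM in sgUTX and 2397 and 2351 CPM in sgLuc libraries. In DMSO the summed sterol enzymes therefore did not overlap between genotypes, while the summed fatty acid enzymes did. The first sgUTX_4 library was the one above the sgLuc pair. With SGC0946 the summed fatty acid enzymes lay wholly lower in sgUTX libraries, at 2807, 2725, 3366 and 3005 CPM against 4167 and 4082 CPM.

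**Figure D2:**
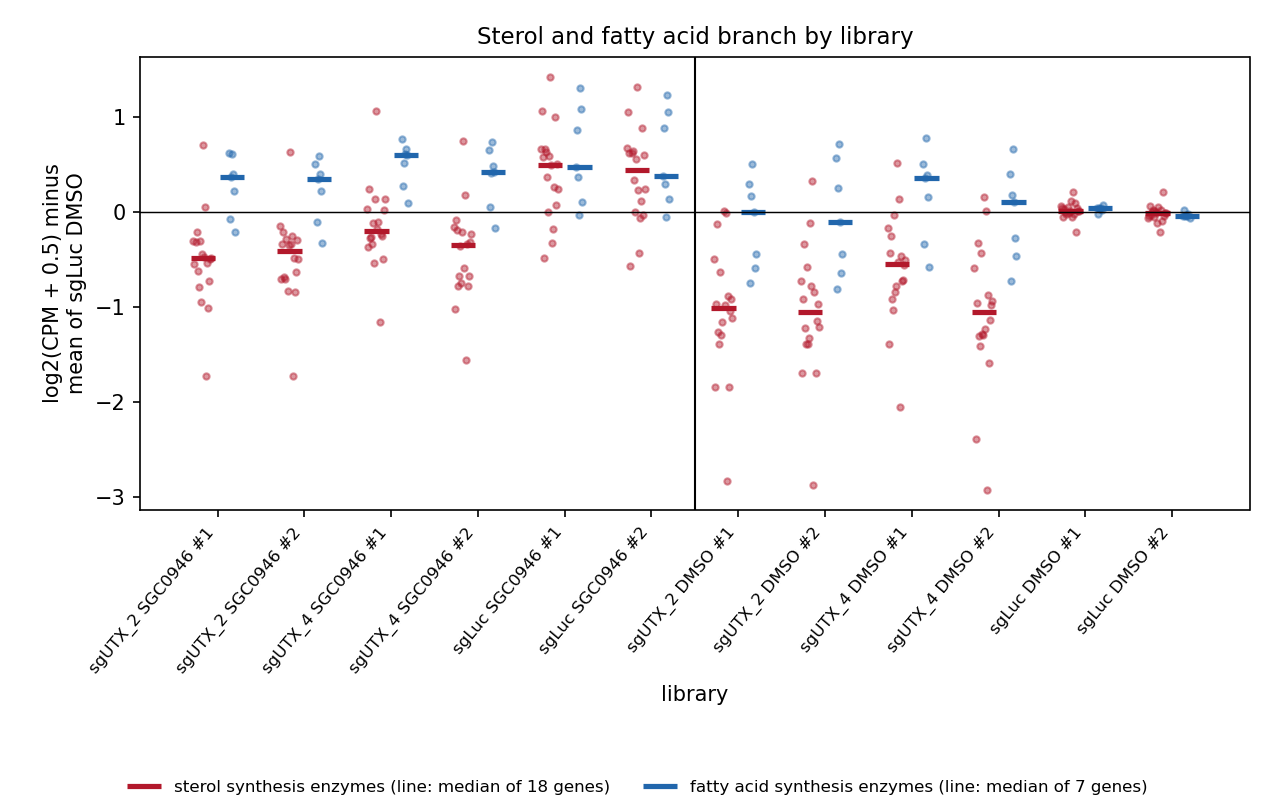
Sterol (red) and fatty acid (blue) enzymes in each library, as log2(CPM + 0.5) minus the mean of the 2 sgLuc libraries in DMSO. Dots are genes and bars are the medians of 18 and 7 genes. In the 8 sgUTX libraries the red bar lies below the blue bar, by 0.76 to 1.16, and in the sgLuc libraries the bars nearly coincide. For the 2 sgLuc libraries in DMSO the bars lie near 0 by construction, since their mean is the reference.

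Genes of cytoplasmic ribosomal proteins took 11.06% to 12.2% of counts in the 8 sgUTX libraries, 13.0% and 13.2% in sgLuc libraries with SGC0946, and 17.8% and 19.0% in sgLuc libraries with DMSO. With scaling factors computed without those genes, 21 of the 30 still fell and 5 rose in DMSO. Scaled by library size alone, the median of all genes tested shifted to 0.26 in DMSO and 0.20 with SGC0946. On that scale PMVK stood at 0.01, SREBF2 at -0.02, FDPS at -0.13 and ACAT2 at -0.22 in DMSO, and none of the 4 passed the test, so their falls are relative to the shift of all genes. FADS1 passed on that scale, at 0.38 (adjusted p = 0.012).

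Promoter sequence is shown for the genes with the largest falls in DMSO and for both SREBF genes. In DMSO SREBF1 was called higher and SREBF2 lower in sgUTX cells, the latter not when scaled by library size alone. With SGC0946 SREBF1 did not pass the test. Windows are RefSeq sequences of GRCh38.p14 from 250 bases before to 50 bases after an annotated start site, 5′ to 3′ on the strand of the gene. They were found for 26 of the 30 genes (35 windows). Capitals mark 2 motifs searched on both strands, the sterol regulatory element TCACNCCAC and the CCAAT box (ATTGG on the other strand) bound by NF-Y, a partner of SREBPs. The windows are MSMO1 at chr4:165327419-165327718 (plus strand), HMGCS1 at chr5:43313363-43313662 (minus strand), INSIG1 at chr7:155297628-155297927 (plus strand), SREBF2 at chr22:41832855-41833154 (plus strand) and SREBF1 at chr17:17836937-17837236 (minus strand).
MSMO1: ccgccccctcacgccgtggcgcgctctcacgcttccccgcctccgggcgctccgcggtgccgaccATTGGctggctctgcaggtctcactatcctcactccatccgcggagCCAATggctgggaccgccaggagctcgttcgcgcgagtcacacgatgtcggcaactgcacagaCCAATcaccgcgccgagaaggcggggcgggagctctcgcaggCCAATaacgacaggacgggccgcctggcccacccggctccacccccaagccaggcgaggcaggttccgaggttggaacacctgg
HMGCS1: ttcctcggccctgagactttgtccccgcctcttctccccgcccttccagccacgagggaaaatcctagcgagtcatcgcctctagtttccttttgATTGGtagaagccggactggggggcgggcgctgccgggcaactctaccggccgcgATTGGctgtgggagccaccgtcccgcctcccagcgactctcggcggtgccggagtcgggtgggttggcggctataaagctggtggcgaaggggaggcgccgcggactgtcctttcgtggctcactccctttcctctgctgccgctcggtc
INSIG1: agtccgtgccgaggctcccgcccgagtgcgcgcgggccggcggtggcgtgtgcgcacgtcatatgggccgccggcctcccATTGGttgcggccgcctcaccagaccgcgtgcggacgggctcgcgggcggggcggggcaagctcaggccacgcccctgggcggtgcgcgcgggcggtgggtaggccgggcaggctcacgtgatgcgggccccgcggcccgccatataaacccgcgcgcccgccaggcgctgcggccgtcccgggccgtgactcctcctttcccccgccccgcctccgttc
SREBF2: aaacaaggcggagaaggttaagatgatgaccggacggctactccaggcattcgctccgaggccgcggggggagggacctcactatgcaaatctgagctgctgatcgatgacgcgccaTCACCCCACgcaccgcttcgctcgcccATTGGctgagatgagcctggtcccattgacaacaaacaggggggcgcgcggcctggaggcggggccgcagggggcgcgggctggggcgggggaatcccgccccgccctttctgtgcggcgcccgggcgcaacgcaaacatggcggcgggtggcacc
SREBF1: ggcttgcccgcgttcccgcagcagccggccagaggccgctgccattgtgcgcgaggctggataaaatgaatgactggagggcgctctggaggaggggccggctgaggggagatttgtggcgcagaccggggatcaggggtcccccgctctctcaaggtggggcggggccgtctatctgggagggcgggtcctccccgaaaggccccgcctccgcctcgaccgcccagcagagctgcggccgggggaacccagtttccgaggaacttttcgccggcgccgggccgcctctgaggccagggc

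Of the windows shown, that of MSMO1 held 4 CCAAT boxes, HMGCS1 held 2, INSIG1 and SREBF2 held 1 each, and SREBF1 held none. Another HMGCS1 window, at chr5:43313132-43313431 and not shown, held no CCAAT box. CCAAT was present in 24 of the 35 windows (68.571%), against 34.648% of 34943 windows of all genes in the table. It was found for 13 of 15 sterol enzymes with a window and for 4 of 6 fatty acid enzymes, ACACA, ACLY, FADS2 and SCD. TCACNCCAC was present in 1 of the 35 windows, that of SREBF2, where it starts 133 bases before the start site, and in 1.122% of all windows. The E-box CACGTG was in 14.286% of the 35 windows against 7.229% of all, and the GC box GGGCGG in 88.571% against 44.867%. Some boxes overlap, as CCAAT and ATTGG do in IDI1, and windows of 1 gene can overlap. LSS and TM7SF2, the sterol enzymes that did not fall, also held a CCAAT box. A match is a string of letters and not a measured binding site.

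Adding SGC0946 raised most of these genes in sgUTX cells. Of the 30 genes 23 rose, none fell and 7 did not pass the test, where 17.4% of all genes tested rose and 16.4% fell, 33.8% in either direction. Among sterol enzymes 15 of 18 rose and the median over the 18 was 0.60 (log2 fold change), the others being PMVK, FDPS and TM7SF2. Among fatty acid enzymes 6 of 7 rose, with a median of 0.34, the exception being ACACA. The median over all genes tested was 0.00. The largest increases were those of HMGCS1, 1.15, and MSMO1, 1.12. Without the sgUTX_2 libraries neither passed the test, with log2 fold changes of 1.17 (adjusted p = 0.115) for HMGCS1 and 1.11 (adjusted p = 0.074) for MSMO1.

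HMGCS1 had 126, 113, 143 and 91.1 CPM in sgUTX libraries with SGC0946, against 51.4, 56.8, 70.2 and 35.03 CPM with DMSO. The treatments did not overlap (log2 fold change 1.15, adjusted p = 0.00285, SE 0.21). MSMO1 had 43.8, 43.9, 64.996 and 49.4 CPM with SGC0946 and 20.2, 19.4, 34.8 and 18.8 CPM with DMSO in sgUTX cells, again without overlap (log2 fold change 1.12, adjusted p = 0.00415, SE 0.22). INSIG1 rose to 250.02, 257, 365 and 278 CPM with SGC0946, against 148, 129, 198 and 135 CPM with DMSO (log2 fold change 0.92, adjusted p = 0.0022, SE 0.16). SQLE rose by 0.93 and SCD by 0.69 on the log2 scale. SREBF1, SREBF2 and SCAP did not pass the test, with log2 fold changes of -0.03, 0.08 and -0.07. For 15 of the 30 genes every SGC0946 library lay above every DMSO library, and for the other 15 the treatments overlapped, where 15.7% of all genes lay wholly above. Without the first sgUTX_4 library in DMSO 24 genes rose, and without the first one with SGC0946 19 rose. With sgUTX_2 libraries left out 13 rose, of which 5 were sterol enzymes, and with sgUTX_4 libraries left out 21 rose.

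In sgLuc cells SGC0946 raised 15 of the 30 genes and lowered 2, PMVK and SCAP, with 13 not passing the test. The fall of SCAP was lost without the first sgLuc library in either treatment (adjusted p = 0.0819 in DMSO and 0.0571 with SGC0946), with library size alone (0.0828) and with no filter on low counts (0.0597). Of all genes tested 24.7% rose and 24.2% fell, 48.9% in either direction. Sterol enzymes divided into 8 that rose, 1 that fell and 9 that did not pass, with a median log2 fold change of 0.47. The 8 became 5 without the first sgLuc library in DMSO or without either sgLuc library with SGC0946, and 11 without the first sgUTX_4 library in DMSO. Of the 7 fatty acid enzymes 5 rose, with a median of 0.43. The largest increases were those of LSS, FADS1, FADS2 and HMGCS1.

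LSS had 153 and 143 CPM with SGC0946 and 61.7 and 52.6 CPM with DMSO in sgLuc cells, a log2 fold change of 1.37 (adjusted p = 0.000493, SE 0.21). FADS1, a desaturase of polyunsaturated fatty acids, had 609 and 577 CPM with SGC0946 and 252 and 239 CPM with DMSO, a log2 fold change of 1.27 (adjusted p = 3.09e-06, SE 0.13). FADS2, the desaturase that acts before it, whose exons partly overlap those of FADS1, had 826 and 810.01 CPM with SGC0946 and 395 and 385 CPM with DMSO, a log2 fold change of 1.07 (adjusted p = 0.00709, SE 0.25). HMGCS1 had 386 and 385 CPM with SGC0946 and 190.3 and 180.04 CPM with DMSO, a log2 fold change of 1.06 (adjusted p = 0.0139, SE 0.28). The call for HMGCS1 was lost without any 1 of the 4 sgLuc libraries, with adjusted p-values of 0.0518 to 0.0775. In each of these 4 genes the treatments were far apart, with the pairs close together. FDFT1, MSMO1 and EBP, which fell with the UTX guides in DMSO, had log2 fold changes of -0.00, -0.12 and 0.02 with the inhibitor in sgLuc cells, none past the test. MSMO1 had 128 and 139.9 CPM with SGC0946 and 144 and 148 CPM with DMSO.

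SREBF1 rose with SGC0946 in sgLuc cells, to 171 and 172 CPM against 116 and 118 CPM with DMSO (log2 fold change 0.55, adjusted p = 3.57e-07, SE 0.07). INSIG1 had 632 and 629 CPM with SGC0946 and 490.01 and 491 CPM with DMSO, and its log2 fold change of 0.36 did not pass the test (adjusted p = 0.22); the error comes from all 12 libraries. PMVK had 34.8 and 33.02 CPM with SGC0946 and 50.2 and 47.96 CPM with DMSO (log2 fold change -0.53, adjusted p = 3.31e-05, SE 0.09). For 23 of the 30 genes both SGC0946 libraries lay above both DMSO libraries and for 5 both lay below, where 38.6% and 37.8% of all genes did. Taken with the sgUTX cells, 14 genes rose in both genotypes, and no gene was called in opposite directions. The share of all genes that rose in both genotypes was not counted.

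The response to SGC0946 differed between sgUTX and sgLuc cells for 4 of the 30 genes, in a test of the difference itself. Of all genes tested 34.8% differed, 18.3% with the response higher in sgUTX cells and 16.5% with it lower. The difference, sgUTX minus sgLuc, was above 0 for MSMO1 and PMVK and below 0 for SREBF1 and FADS1. The difference of the log2 fold changes, sgUTX minus sgLuc, was 1.24 (adjusted p = 0.0258, SE 0.35) for MSMO1. It was 0.57 (adjusted p = 0.000293, SE 0.11) for PMVK, which did not pass the test in sgUTX cells and fell in sgLuc cells. It was -0.57 (adjusted p = 7.75e-06, SE 0.08) for SREBF1 and -0.88 (adjusted p = 0.00085, SE 0.16) for FADS1. The other 26 genes did not pass. HMGCS1, with a difference of 0.09 (SE 0.35), and STARD4, with 0.16 (SE 0.18), were among them, and a missed threshold does not show that their responses were alike. LSS, at -0.73 (adjusted p = 0.0537, SE 0.26), and EBP, at 0.35 (adjusted p = 0.0588, SE 0.14), lay closest to the threshold. LSS passed with RLE size factors, library size alone, a fit of 6 groups and DESeq2 (adjusted p = 0.00738 to 0.0452), and EBP with 6 groups and with no filter on low counts (adjusted p = 0.0257 to 0.0372). The difference for MSMO1 was lost without any 1 of the 4 sgLuc libraries (adjusted p = 0.0688 to 0.0979), without the sgUTX_2 libraries (0.094) and with no such filter (0.0606). Counts for this test also depended on other libraries. Without the first sgUTX_4 library in DMSO the response was higher in sgUTX cells for 5 genes and lower for 3, and without all sgUTX_4 libraries for 7 and 5. Without the first sgUTX_4 library with SGC0946 it was higher for 2 and lower for 4.

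**Figure D3:**
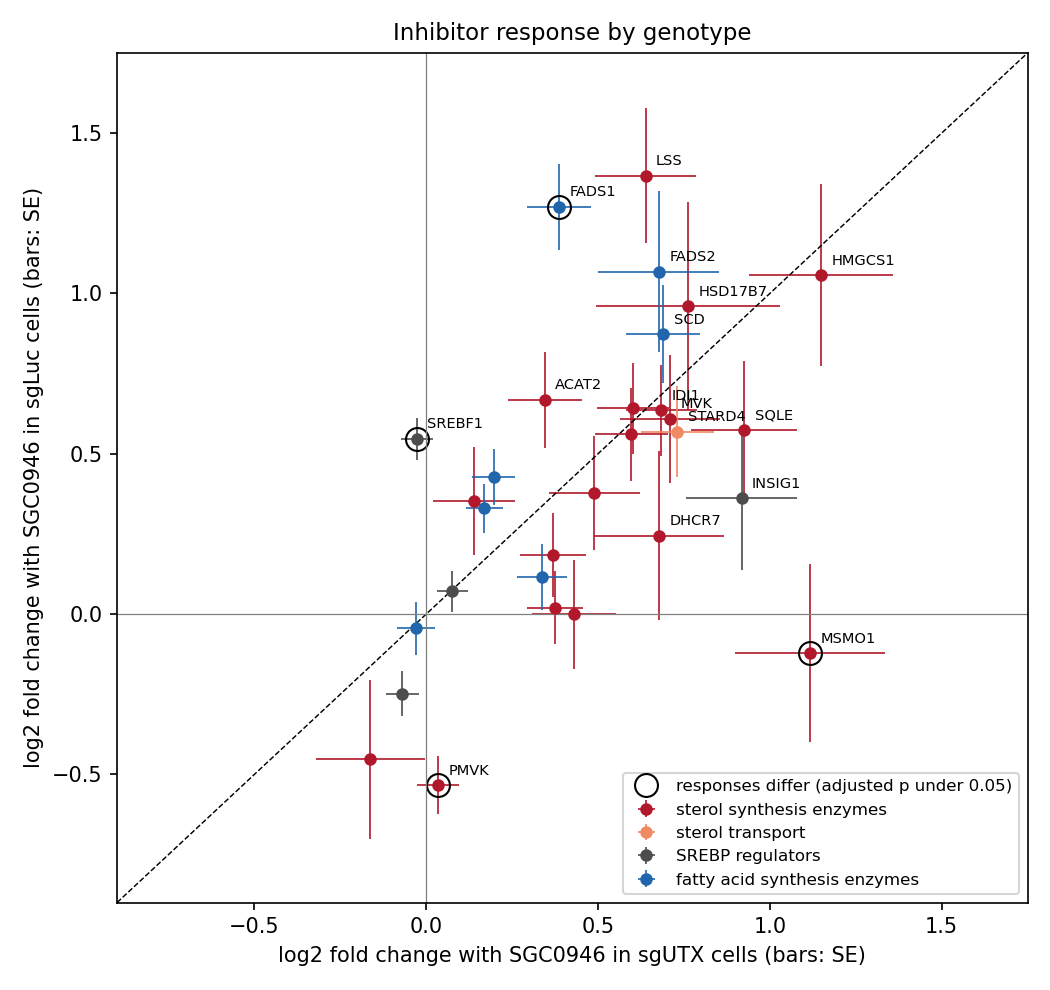
Log2 fold change with SGC0946 against DMSO of each of the 30 genes in sgUTX cells (x axis) and in sgLuc cells (y axis), with bars for SE and the line of equal response dashed. Circled genes, MSMO1, PMVK, SREBF1 and FADS1, are those whose responses differed at an adjusted p under 0.05. Most genes lie right of 0 and above 0, with FADS1 and LSS high on the y axis and MSMO1 far to the right near 0 on the y axis.

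With SGC0946 in both genotypes, sterol genes were again lower in sgUTX than in sgLuc cells. Of the 18 enzymes 15 fell, 1 rose (PMVK) and 2 did not pass (TM7SF2 and DHCR7), with a median log2 fold change of -0.77. STARD4, INSIG1 and SREBF2 fell too, SCAP rose, and SREBF1 did not pass. Of all 30 genes 22 fell and 4 rose, where 29.3% of all genes tested fell and 27.7% rose, 56.9% in either direction. For 23 of the 30 the sgUTX libraries lay wholly below the sgLuc libraries and for 5 wholly above, where 34.3% and 33.8% of all genes did. Without the first sgUTX_4 library with SGC0946 23 fell and 3 rose. The 2 treatments share no library but were tested in the same fit. Across them 19 genes fell in both, 3 (SCAP, FASN and ACACA) rose in both, and 1, PMVK, was called in opposite directions. The call of FASN with SGC0946 did not hold in every alternative fit. The share of all genes called alike in both treatments was not counted.

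HMGCS1 had 126, 113, 143 and 91.1 CPM in sgUTX and 386 and 385 CPM in sgLuc libraries with SGC0946, a log2 fold change of -1.70 (adjusted p = 0.000246, SE 0.23). HSD17B7 had 5.88, 6.65, 10.2 and 6.998 CPM in sgUTX and 25.2 and 23.1 CPM in sgLuc libraries, a log2 fold change of -1.71 (adjusted p = 0.000201, SE 0.27). INSIG1 had 250.02, 257, 365 and 278 CPM in sgUTX and 632 and 629 CPM in sgLuc libraries, a log2 fold change of -1.13 (adjusted p = 0.000739, SE 0.19). In all 3 genes every sgUTX library was below the sgLuc pair. LSS, which overlapped in DMSO, was lower in sgUTX cells with SGC0946, at 92.9, 88.3, 119 and 95.8 CPM against 153 and 143 CPM in sgLuc libraries (log2 fold change -0.58, adjusted p = 0.017, SE 0.17). That call was lost without either sgLuc library with SGC0946, without the sgUTX_2 libraries and with library size alone (adjusted p = 0.057 to 0.0975). PMVK was higher, at 42.3, 42.3, 40.4 and 42.8 CPM in sgUTX and 34.8 and 33.02 CPM in sgLuc libraries (log2 fold change 0.31, adjusted p = 0.00182, SE 0.08).

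SREBF1 did not pass the test between genotypes with SGC0946, with 175, 167, 177 and 169.8 CPM in sgUTX and 171 and 172 CPM in sgLuc libraries and a log2 fold change of 0.01 (adjusted p = 0.913, SE 0.06). SCAP had 109, 108, 103 and 106 CPM in sgUTX and 66.2 and 68.1 CPM in sgLuc libraries, a log2 fold change of 0.67 (adjusted p = 3.95e-09, SE 0.06). Among fatty acid enzymes ACACA and FASN rose, SCD, FADS1, FADS2 and ELOVL6 fell, and ACLY did not pass. ACACA and FASN build the chain, and the 4 that fell desaturate or lengthen it. The calls of FASN, FADS2 and ELOVL6 did not hold in every alternative fit. ACACA had 115, 113, 115 and 125 CPM in sgUTX and 72.8 and 72.1 CPM in sgLuc libraries, a log2 fold change of 0.69 (adjusted p = 2.86e-08, SE 0.07). SCD had 866, 849, 1104 and 943 CPM in sgUTX and 1662 and 1682 CPM in sgLuc libraries, a log2 fold change of -0.83 (adjusted p = 0.000134, SE 0.13). FADS1 had 325, 324, 390.4 and 343 CPM in sgUTX and 609 and 577 CPM in sgLuc libraries, a log2 fold change of -0.78 (adjusted p = 3.83e-05, SE 0.11).

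**Figure D4:**
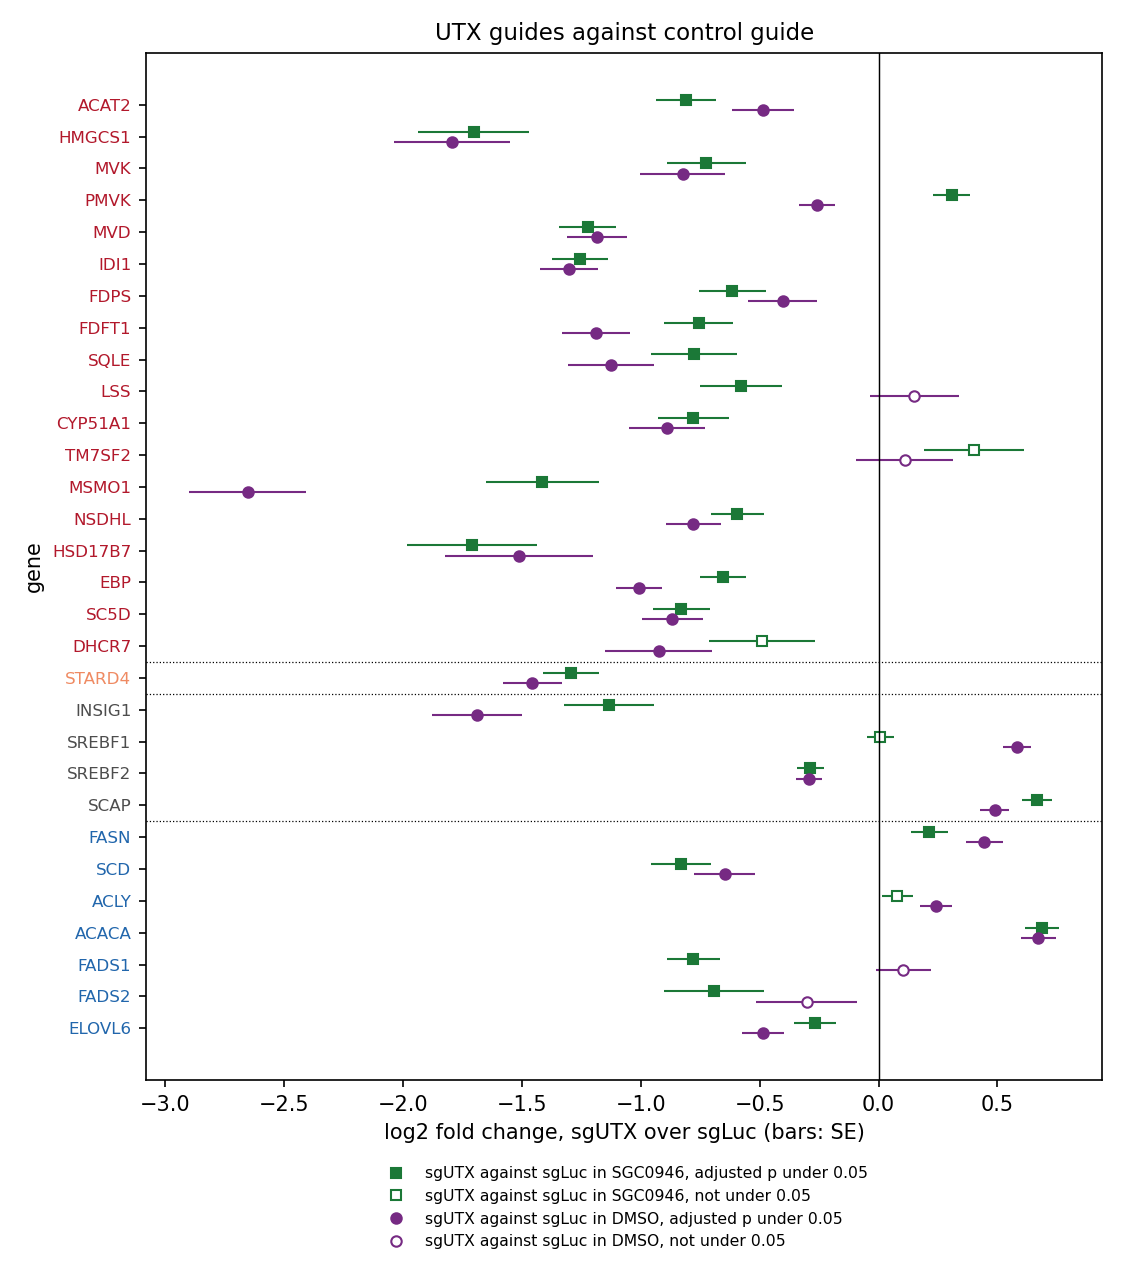
Log2 fold change of sgUTX over sgLuc for each of the 30 genes with SGC0946 (green squares) and in DMSO (purple circles), with bars for SE and open symbols where the adjusted p was not under 0.05. Genes run down the page by role. Most sterol enzymes lie left of 0 in both treatments, PMVK lies on opposite sides, and ACACA and SCAP lie right of 0 in both.

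Cells with both the UTX guides and the inhibitor were also set beside untreated control cells, as a description. In sgUTX libraries with SGC0946, 14 genes lay wholly below the sgLuc libraries with DMSO, 8 lay wholly above and 8 overlapped, where 35% and 35.2% of all genes lay wholly below and above. The 8 above were LSS, SREBF1, SCAP, FASN, ACLY, ACACA, FADS1 and FADS2, and 5 of these are fatty acid enzymes. Among sterol enzymes 11 of 18 lay below, MSMO1 the farthest, with 43.8, 43.9, 64.996 and 49.4 CPM in sgUTX cells with SGC0946, against 144 and 148 CPM in sgLuc cells with DMSO. The sum over the 18 sterol enzymes was 1425, 1469, 1882 and 1523 CPM in sgUTX libraries with SGC0946, below 2201 and 2164 CPM in sgLuc libraries with DMSO. The sum over the 7 fatty acid enzymes was 2807, 2725, 3366 and 3005 CPM, above 2397 and 2351 CPM in the same sgLuc libraries.

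**Figure D5:**
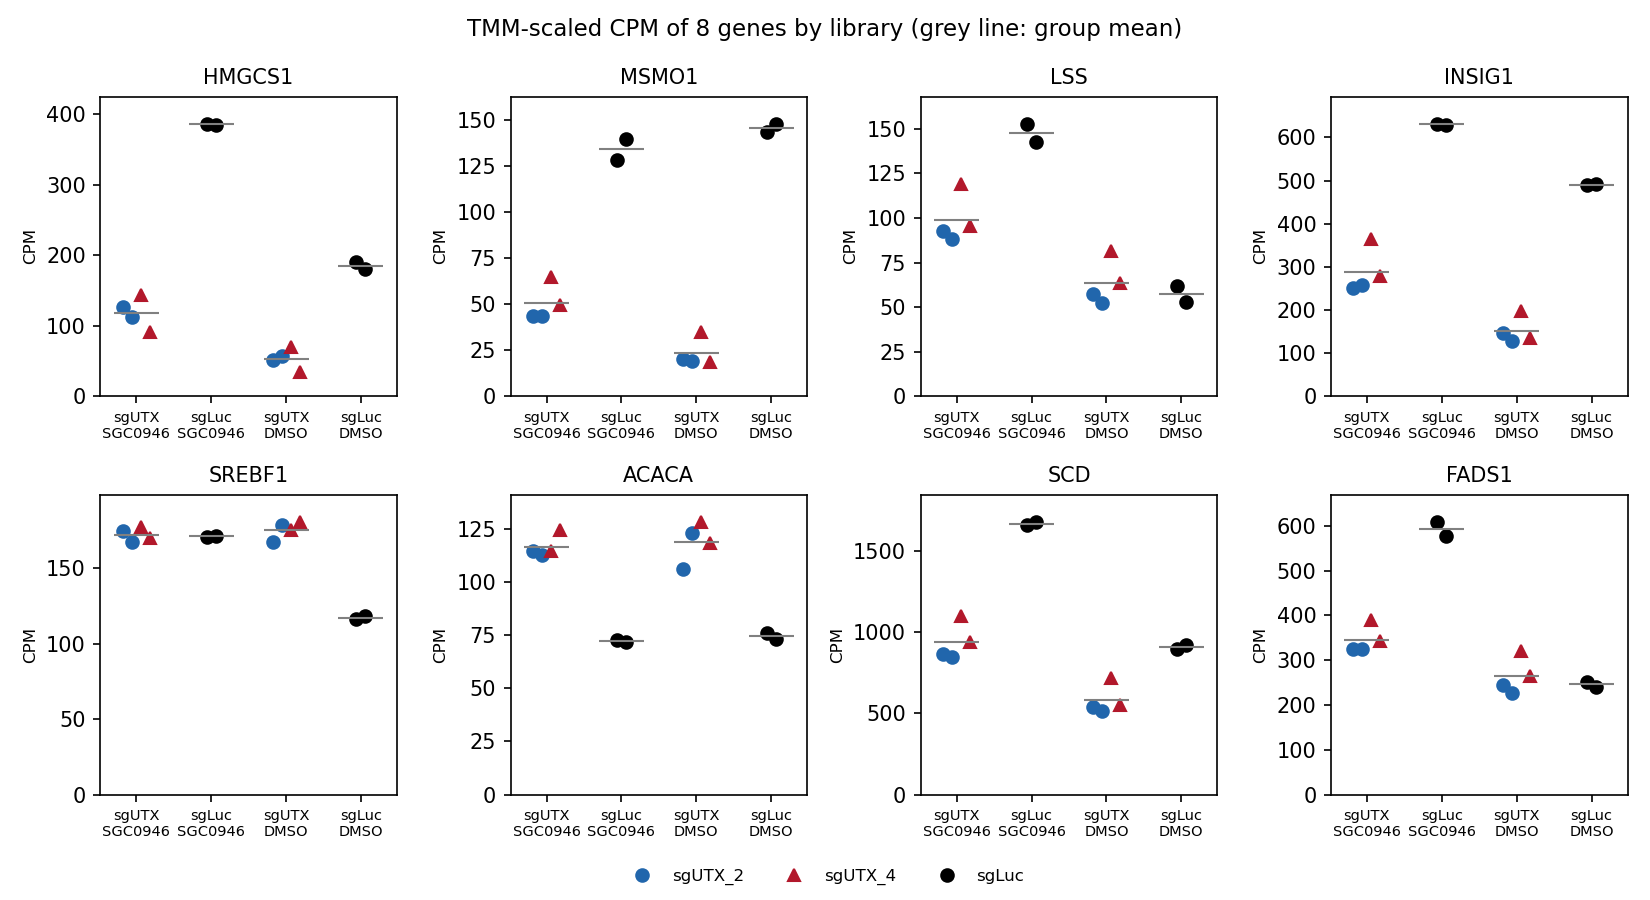
TMM-scaled CPM of HMGCS1, MSMO1, LSS, INSIG1, SREBF1, ACACA, SCD and FADS1 in every library, with grey lines for group means, blue circles for sgUTX_2, red triangles for sgUTX_4 and black circles for sgLuc. Axes start at 0. HMGCS1 and INSIG1 are lower in sgUTX cells under both treatments, SREBF1 is low only in sgLuc cells with DMSO, and ACACA changes with the guide and not visibly with the inhibitor.

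Between the UTX guides most of these genes leaned towards sgUTX_4, and few passed the test. The log2 fold change was above 0 for 25 of the 30 in DMSO and for 27 with SGC0946. Over all genes tested the median log2 fold change was -0.004 in both treatments. In DMSO 2 of the 30, FADS1 and FADS2, were higher with sgUTX_4 than with sgUTX_2 and none was lower, where 1.72% of all genes tested were higher and 1.77% lower, 3.49% in all. FADS2 had 434 and 324 CPM with sgUTX_4 and 259 and 251 CPM with sgUTX_2, a log2 fold change of 0.57 (adjusted p = 0.0153, SE 0.11), and FADS1 one of 0.31 (adjusted p = 0.0251, SE 0.08). In DMSO 8 genes had an unadjusted p under 0.05, all 8 higher with sgUTX_4. How many of all genes had such a p was not counted in either treatment. The count in DMSO depended on single libraries: 1 gene was called without the first sgUTX_4 library in DMSO and 15, of which 11 were sterol enzymes, without the second. It was 1 without the first sgUTX_2 library in DMSO, 0 without the second, and 5 without either sgUTX_4 library with SGC0946. With SGC0946 none of the 30 passed edgeR's test, 9 had an unadjusted p under 0.05, all 9 higher with sgUTX_4, and DESeq2 called 1. Without either sgUTX_4 library in DMSO 8 were called with SGC0946, and without the second sgUTX_4 library with SGC0946 6 were. Of all genes tested 3.01% differed between the guides with SGC0946, 1.61% higher and 1.4% lower with sgUTX_4. With single libraries left out, the calls over all genes moved widely too. The median log2 fold change of the 30 genes was 0.19 in DMSO and 0.20 with SGC0946, and it was -0.02 in DMSO without the first sgUTX_4 library.

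Levels between genes were compared per length, as TPM, computed from the counts and exonic lengths. TPM carries no TMM factors, so its values in sgUTX and sgLuc cells are not on the scale of the CPM above. In sgUTX cells with DMSO the highest mean levels were those of SCD (423 TPM), FASN (239.6 TPM) and ACLY (232 TPM), 3 enzymes of the fatty acid branch. In sgLuc cells with DMSO they were those of SCD (509 TPM), INSIG1 (402 TPM) and FDFT1 (339.5 TPM). The lowest in both were HSD17B7 and TM7SF2, at 3.57 and 5.47 TPM in sgUTX cells and 7.78 and 3.88 TPM in sgLuc cells. MSMO1 averaged 31.3 TPM in sgUTX cells and 151 TPM in sgLuc cells with DMSO.

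Other genes of lipid metabolism were read from lists by role, to be set against all genes tested, of which 32.3% fell and 28.7% rose in sgUTX cells with DMSO and 29.3% and 27.7% with SGC0946. Of 8 genes of cholesterol export and its receptor LXR, 5 fell and 1 rose in sgUTX cells with DMSO. ABCG1, an exporter of cholesterol, had 3.68, 4.47, 2.81 and 4.05 CPM in sgUTX and 14.5 and 16.04 CPM in sgLuc libraries (log2 fold change -2.01, adjusted p = 2.11e-10, SE 0.16). MYLIP, a ubiquitin ligase induced by LXR, had a log2 fold change of -2.08. With SGC0946 6 of the 8 fell in sgUTX against sgLuc cells and none rose, and ABCG1 had a log2 fold change of -1.13. SGC0946 raised ABCG1 in both genotypes, by 1.96 in sgUTX and 1.08 in sgLuc cells on the log2 scale. MYLIP rose by 0.39 in sgUTX cells and had a log2 fold change of -0.997 in sgLuc cells, a difference of 1.39 (adjusted p = 1.31e-08, SE 0.12).

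Of 16 further genes of fatty acid synthesis and activation, 8 fell and 6 rose in sgUTX cells with DMSO, where 61% of all genes tested were called in either direction. ACSS2, which makes acetyl-CoA from acetate, was the largest, with 14.5, 15.5, 15.4 and 13.2 CPM in sgUTX and 86.2 and 91.9 CPM in sgLuc libraries (log2 fold change -2.60, adjusted p = 1.46e-15, SE 0.09). It stayed low with SGC0946, at 37.3, 33.03, 30.6 and 26.9 CPM in sgUTX and 164 and 173 CPM in sgLuc libraries (log2 fold change -2.39, adjusted p = 8.88e-16, SE 0.09). SLC25A1, the mitochondrial citrate carrier, had a log2 fold change of -1.17 in sgUTX cells with DMSO. Of 6 genes that supply cytosolic NADPH 5 fell with DMSO and 6 with SGC0946. TKT, transketolase of the pentose phosphate path, had the largest fall in both, with a log2 fold change of -0.86 with SGC0946 and -1.20 with DMSO. Of 10 genes that process SREBPs or degrade sterol enzymes 4 rose and 4 fell in sgUTX cells with DMSO, the largest being MBTPS1 at 0.86, the Golgi protease that makes the first cleavage of SREBPs. Of 10 genes that use isoprenoids 5 rose and 1 fell, PDSS1 the largest at 1.13, and of 9 genes of fatty acid oxidation 3 rose and 3 fell. Of 9 genes of cholesterol storage and lysosomal export 3 rose and 3 fell, the largest being NPC2, a lysosomal cholesterol carrier, at -1.48.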

How the data were processed

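RNA of 12 OCI-AML2 libraries was sequenced from total RNA as pairs of 150 bases, per the labels' protocols. The authors deposited raw read counts per gene, not normalized, and STAR 2.5.1b and the build hg19 stand in the submitters' processing notes. All 58735 identifiers match GENCODE 29, which annotates GRCh38, so it is uncertain which build was counted on, and positions, exonic lengths and overlaps are from GENCODE 29. How reads were counted, with or without strand, is not given in the sources used here. The same holds for reads that match several genes. Pseudogene copies held at most 0.271% of the counts of their gene.

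Differences were tested with two-sided quasi-likelihood F-tests (robust setting) in edgeR 4.0.16 under R 4.3.3, after filterByExpr and TMM scaling. P-values were adjusted by Benjamini and Hochberg over the 15060 genes kept and called at under 0.05, and every adjusted p printed is from edgeR unless another tool stands beside it. All 12 libraries were fitted in 4 groups, sgUTX or sgLuc by SGC0946 or DMSO, with both guides as replicates (8 residual degrees of freedom). The guides were compared in a fit with 6 groups, which leaves 6 residual degrees of freedom. Each SE was derived from a fold change and its F statistic. CPM includes TMM factors, and a pseudocount of 0.5 CPM was added for per-library log2 differences. TPM was computed from counts and exonic length. The fits were tested on simulated counts. Alternatives were other scalings, no filter, DESeq2 1.42.0, other groupings, leaving out libraries or guides, and the replicate number as a block.

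The 30 genes, their roles, the lists and the motifs were chosen with earlier results of these data known, so that counts are given as descriptions beside those of all genes, with no test over a list. All 30 genes may be named, with full values for the largest change of each role, the regulators and genes called against their role. Genes of other lists are named where called with an absolute log2 fold change of at least 1 or where largest in their list. Nothing in the labels says that the libraries of a group are separate cultures, so the p-values cover only the spread between libraries, which may be technical. Between libraries of a group the chi-square per gene was 2.85 to 6.29 over genes with at least 20 counts, so all 12 were kept as separate.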

Additional observations from a re-analysis of the deposited data

Results flagged for a closer look

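In 9 of the 30 genes, 1 of the 4 sgUTX libraries with DMSO lay far from the other 3, with a gap to its neighbour that was large for the range of the group, and it was the first sgUTX_4 library each time. That library was the highest for MVK (21.9 CPM), IDI1 (73.9 CPM), FDFT1 (329 CPM), MSMO1 (34.8 CPM), NSDHL (23.4 CPM), HSD17B7 (7.27 CPM), SC5D (19.99 CPM) and SCD (721 CPM). It was the lowest for ELOVL6 (42.2 CPM). Chance alone marks about 1 in 20 groups, and the 30 genes share the same libraries. With SGC0946 only ACACA had such a library, the second sgUTX_4 library at 125 CPM.

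The response to SGC0946 differed between sgUTX and sgLuc cells, by a test of the difference in edgeR, for 4 genes. On the log2 scale, sgUTX minus sgLuc, the difference was 0.57 for PMVK, 1.24 for MSMO1, -0.57 for SREBF1 and -0.88 for FADS1.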

How the results depend on the processing

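With each of the 12 libraries left out in turn, members called higher with SGC0946 in sgLuc cells numbered 12 to 18 and those called lower 1 to 2. Those whose response was higher in sgUTX cells numbered 1 to 5, those whose response was lower 2 to 4, and those higher with sgUTX_4 than sgUTX_2 0 to 15 in DMSO and 0 to 8 with SGC0946. Scaled by library size alone, PMVK turned to 0.012 in sgUTX against sgLuc cells with DMSO, 1 gene was lower with SGC0946 in sgLuc cells, 7 were higher in sgUTX than sgLuc cells with SGC0946, and 5 responses were lower in sgUTX cells. That scaling put 66.7% of calls higher in sgUTX cells with DMSO, against 47.1%, 65% with SGC0946, against 48.6%, and 60.8% higher with SGC0946 in sgLuc cells, against 50.6%, and 40.6% of differing responses higher in sgUTX cells, against 52.6%. With no filter on low counts 1 gene was lower with SGC0946 in sgLuc cells, 4 responses were lower in sgUTX cells, and 8 genes were higher with sgUTX_4 in each treatment. With guides averaged in a fit of 6 groups 5 responses were lower in sgUTX cells. DESeq2 called 1 gene higher with sgUTX_4 with SGC0946, and a fit of only the groups compared called 0 in DMSO and 7 with SGC0946. Without sgUTX_2 libraries 13 genes rose with SGC0946 in sgUTX cells, and without sgUTX_4 libraries 7 responses were higher and 5 lower in sgUTX cells. The causes were not tested.

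With DMSO 21 of the 26 calls between sgUTX and sgLuc cells held in every alternative, the others being ACAT2, PMVK, FDPS, SREBF2 and ACLY. With SGC0946 20 of 26 did, the others being SQLE, LSS, SREBF2, FASN, FADS2 and ELOVL6. For SGC0946 against DMSO 10 of 23 calls held in sgUTX cells and 13 of 17 in sgLuc cells. Of the 4 differing responses MSMO1 did not hold in every alternative.

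Replicate numbers of the groups did not pair the libraries: correlations of same-numbered deviations were -0.17 to 0.11 over 15 pairs of groups. With the replicate block 5 genes in DMSO and 3 with SGC0946 were higher with sgUTX_4 than sgUTX_2. Having 2 libraries per sgLuc group limits what can be seen. The common biological coefficient of variation was 0.07745 in the fit of 4 groups, a spread between libraries that may be technical.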
